A study of Mus musculus with 4 samples.

Results

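The voltage-gated ion channel and potassium channel genes were examined in the hippocampus of ovariectomized female mice after global cerebral ischemia (GCI). They were taken by gene symbol, as every symbol that begins with Kcn, the numbered Hcn symbols, every Scn symbol of an alpha or beta subunit, and every Cacna1 symbol, with Kcnj10 and Kcne2 left out. The rule gave 120 of the 22609 gene symbols counted, and no expression value entered it. Of these, 5 are not reported by name here, and they stay in the counts, medians and correlations over all members and classes. RNA-Seq was run on 4 libraries, 2 from FLOX+GCI mice, the control genotype, and 2 from FBN-ARO-KO+GCI mice. FBN-ARO-KO mice lose the aromatase gene Cyp19a1 by Cre recombinase driven from the CaMKIIα promoter, which is active in forebrain excitatory neurons, so the other cells of the hippocampus keep the gene. All mice of both groups had been ovariectomized 1 week before both common carotid arteries were clipped for 20 min, and the hippocampi were taken after 24 h of reperfusion. No sham library was analysed here, so the values compare genotypes after ischemia and not ischemia with its absence. The labels number the libraries of each group 1 and 2 without saying whether they come from separate mice, so the p-values measure the spread between these libraries, which may be technical.

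Voltage-gated channels open when the membrane potential changes. Sodium channels carry the upstroke of the action potential, calcium channels couple it to calcium entry, and Kv channels repolarize the membrane. Inward rectifier and K2P (tandem pore domain) potassium channels set the resting potential, and HCN channels carry an inward cation current that opens on hyperpolarization. In hippocampal neurons these genes shape firing threshold, spike width and dendritic integration, and auxiliary subunits adjust the gating and surface delivery of the pores.

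Potassium channels share a short filter in the pore, in which a glycine, a tyrosine or phenylalanine and a second glycine follow each other. The coding sequence of this stretch is shown for 3 pairs of related members, because related channels that encode nearly the same filter differ in the base composition of their transcripts, and the differences between groups described here varied with that composition. The pairs were chosen after their values were seen. Each sequence is 45 bases of 1 coding exon on the build NCBIM37 (mm9), read 5′ to 3′ on the coding strand, with the 9 bases of the Gly-Tyr-Gly or Gly-Phe-Gly codons in capitals.
Kcnt2, chr1:142321843-142321887, plus strand, exon 9 of 27: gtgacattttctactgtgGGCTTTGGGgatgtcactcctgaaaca
Kcnt1, chr2:25749875-25749919, plus strand, exon 11 of 32: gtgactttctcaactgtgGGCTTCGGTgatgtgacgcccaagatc
Kcnh7, chr2:62615382-62615426, minus strand, exon 8 of 16: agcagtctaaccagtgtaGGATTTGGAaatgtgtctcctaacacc
Kcnh3, chr15:99063348-99063392, plus strand, exon 8 of 15: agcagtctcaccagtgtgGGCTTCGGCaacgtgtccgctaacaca
Kcnj2, chr11:110933509-110933553, plus strand, exon 2 of 2: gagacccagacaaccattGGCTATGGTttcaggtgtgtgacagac
Kcnj4, chr15:79315779-79315823, minus strand, exon 2 of 2: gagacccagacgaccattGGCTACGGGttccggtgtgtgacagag
Kcnt2 and Kcnt1 shared 33 of the 45 bases and 13 of the 15 residues. Kcnh7 and Kcnh3 shared 36 bases and 14 residues, and Kcnj2 and Kcnj4 shared 40 bases and 14 residues. Of the 15 codons, those with G or C in the last position numbered 5 in Kcnt2 and 10 in Kcnt1, 5 in Kcnh7 and 11 in Kcnh3, and 9 in Kcnj2 and 12 in Kcnj4.

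Counts on genes totaled 24774433 and 24333396 in the FLOX+GCI libraries and 33076795 and 30114003 in the FBN-ARO-KO+GCI libraries. Levels are given as CPM, counts scaled by library size and TMM factor, and 3 counts, the smallest level taken as shown, corresponded to between 0.0905 and 0.122 CPM, which covers counting error only. For Cyp19a1, the targeted gene, the FLOX+GCI libraries held 4 and 1 counts and the FBN-ARO-KO+GCI libraries 2 and 2, which is too few to check the labels. The FBN-ARO-KO+GCI libraries differed from each other by base composition, and this contrast does not tell which of them departs. Across 14020 tested genes, the log2 difference of replicate 2 from replicate 1 correlated with transcript GC content (Spearman's rho = -0.48), against 0.10 for the FLOX+GCI libraries. These are correlations across genes, which are not independent replicates. Without FBN-ARO-KO+GCI replicate 2 the share of all genes with an unadjusted p under 0.05 fell below the 16.5% found with it. The counts at this threshold over all channel genes and over their partner genes are therefore given with and without that library. Counts by class, of cell type markers and of groups that do not overlap are given only with it. Some of the values it moved are given both ways.

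Of the 120 channel genes, 103 passed edgeR's filter on low counts. The other 17 had at most 10 counts in any library, and 5 of them, Kcna7, Kcnj1, Kcnk16, Kcnk18 and Kcnmb3, had 0 in all 4, below the limit given above. The channels of skeletal muscle (Scn4a), retina (Cacna1f) and sensory neurons (Scn10a, Scn11a) were among the 17. Levels of different genes were compared per kilobase of the longest coding transcript, as the mean of the 4 libraries. Among the members reported by name, auxiliary subunits led this order. Kcnab2, a cytoplasmic beta subunit of the Kv1 channels, stood at 247 CPM per kilobase. The sodium channel beta subunits Scn3b and Scn2b followed at 97.1 and 69.0, with Kcnab1 at 57.2 and the Kv4-binding calcium sensor Kcnip3 at 49.0. The highest pore-forming subunits named here were lower, with the K2P channel Kcnk1 at 43.4, the sodium channel Scn8a at 41.4, the inward rectifier Kcnj4 at 38.6 and Hcn2 at 34.5. These neighbours lay close together, and their order depends on the length of the annotated transcript. The plot of transcript level by class shows that every large class holds both abundant and scarce members.

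**Figure D1:**
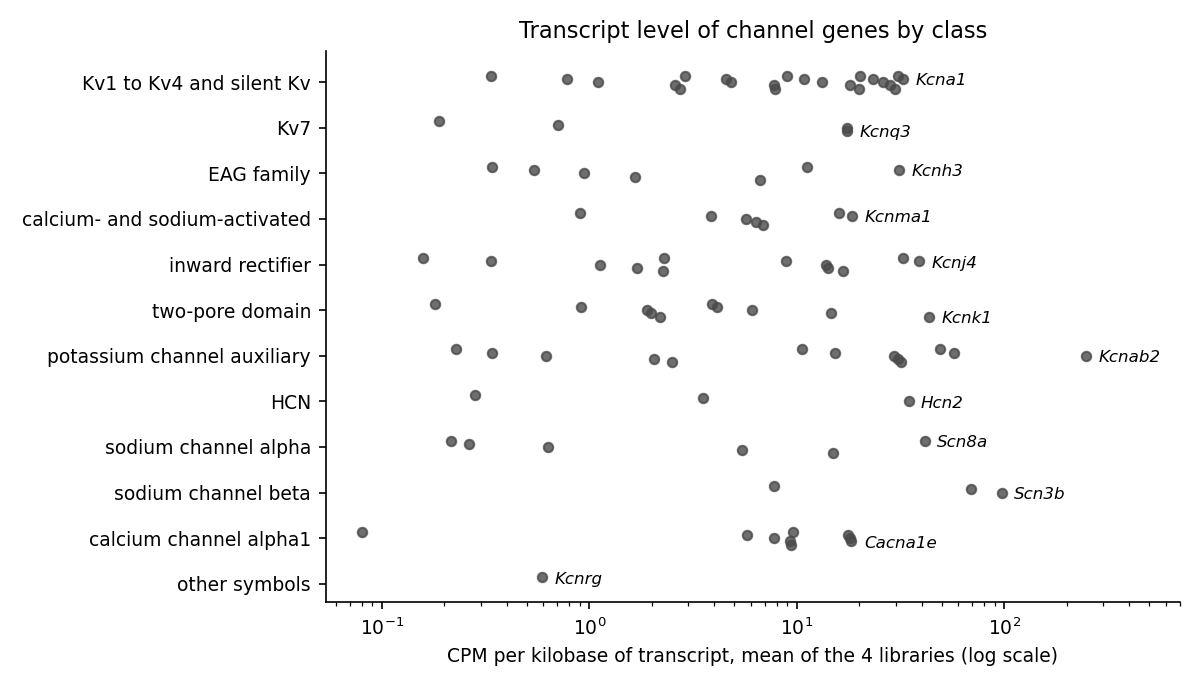
Level of the channel genes reported by name that passed the filter and have a coding transcript, in CPM per kilobase of transcript (log scale, mean of the 4 libraries), by channel class, with the highest plotted gene of each class labelled. Each point is 1 gene. The auxiliary subunit Kcnab2 stands at 247 CPM per kilobase, above the highest pore-forming subunit plotted, Kcnk1 at 43.4.

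No channel gene reached an adjusted p under 0.05 between FBN-ARO-KO+GCI and FLOX+GCI in edgeR's quasi-likelihood test, in which 0.0138% of all 14527 genes did (2 genes). The smallest adjusted p of a channel gene was 0.238. At an unadjusted p under 0.05 there were 18 of the 103 channel genes, or 17.5%, against 16.5% of all genes, so the share among channel genes was near the background. Of these 18, 6 were higher in FBN-ARO-KO+GCI (8.72% of all genes) and 12 were lower (7.82% of all genes). With library totals in place of TMM, this split was 4 higher and 14 lower. All genes shifted down in that setting, with a median log2 fold change of -0.04, against -0.06 among the channel genes. The 2 groups of libraries did not overlap for 46 channel genes, or 44.7%, against 51.8% of all genes, with 16 higher (25.9% of all genes) and 30 lower (25.8% of all genes). Most differences were small. The absolute log2 fold change was under 0.2 for 61 of the 103 and under 0.5 for 92, and the median was -0.02 among the channel genes and -0.01 among all genes.

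The channel genes higher at an unadjusted p under 0.05 included Kcnt2, Scn3b, Scn3a, Scn2b and Kcnab1. Those lower included Kcnh4, Kcnk12, Cacna1g, Kcns1, Kcnj4, Kcnh3, Kcnip3, Kcnh2, Kcng1, Kcnk3 and Kcnmb4. Without FBN-ARO-KO+GCI replicate 2, 10 channel genes (9.71%, against 5.64% of all genes) had an unadjusted p under 0.05, of which 9 were among the 18, namely Kcnt2, Scn3b, Cacna1g, Kcng1, Kcnh3, Kcnh4, Kcnip3, Kcnj4 and Kcns1. Of the 16 genes named above, the log2 fold change of 1, Scn3a, then moved by over 1.5 times, from 0.25 to 0.13. An annotated gene overlapped 30 of the 120 members on the opposite strand, among them Scn2b, Scn3a and Kcnip3, and such genes could share reads.

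**Figure D2:**
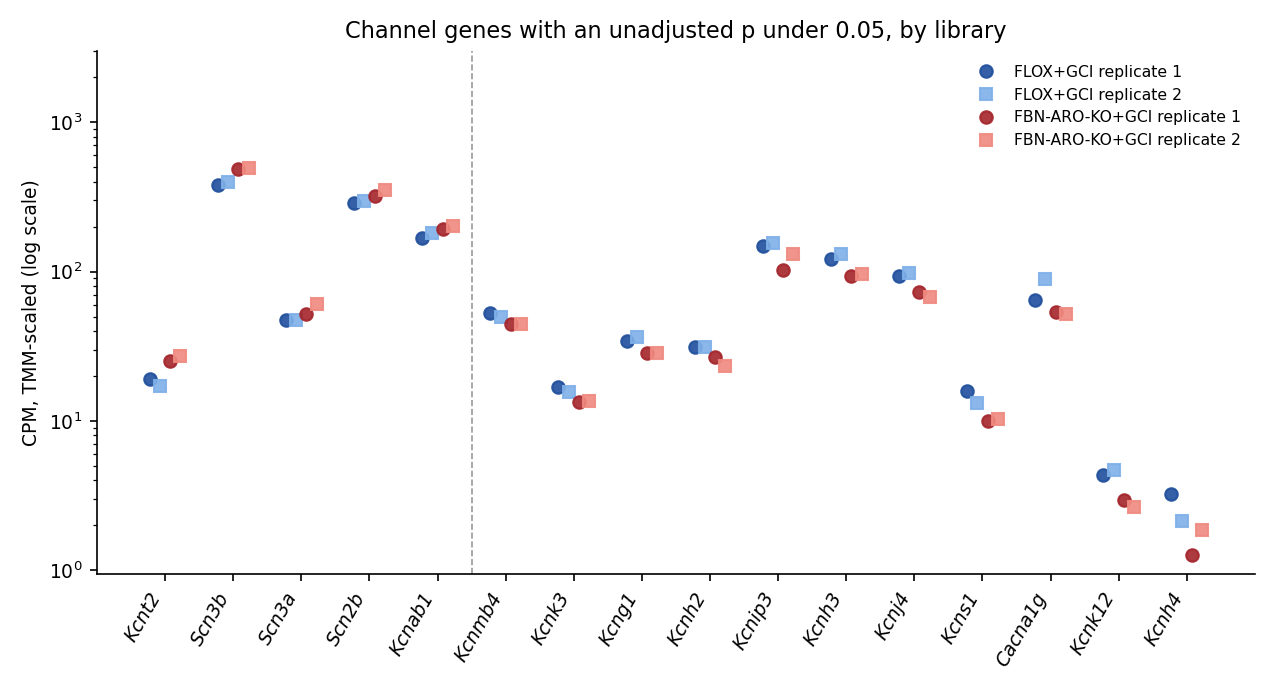
TMM-scaled CPM (log scale) in each of the 4 libraries for the 16 channel genes reported by name with an unadjusted p under 0.05, those higher in FBN-ARO-KO+GCI left of the dashed line and those lower right of it. Each symbol is 1 library, and for all 16 genes the 2 libraries of one group lie on one side of those of the other. The genes were selected by p from these same libraries, so this separation adds no support. It was also found for 51.8% of all genes.

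Sodium channel beta subunits anchor the pore and modify its gating. Not every beta gene is reported by name here, so no count and no direction is given for this class. Scn3b stood at 379 and 399 CPM in FLOX+GCI and at 484 and 492 in FBN-ARO-KO+GCI, for a log2 fold change of 0.33 ± 0.07 (SE) or 1.26-fold, with an adjusted p of 0.238. Scn2b stood at 289 and 296 against 321 and 352, a log2 fold change of 0.20 ± 0.07, or 0.13 without FBN-ARO-KO+GCI replicate 2. For both genes the FBN-ARO-KO+GCI libraries lay above the FLOX+GCI libraries. Scn4b gave 39.0 and 38.3 against 37.4 and 38.2. At an unadjusted p under 0.05, where 16.5% of all genes stood, there was 1 of the 6 pore-forming alpha subunits tested. This was Scn3a, a subunit prominent in the developing brain, at 47.2 and 47.5 against 51.9 and 60.5, with a log2 fold change of 0.25 ± 0.10 that became 0.03 after correcting for the GC content and length of the transcripts. Scn8a, the main subunit of the axon initial segment, stood at 443 and 452 against 444 and 474, and Scn1a, the subunit on which fast-spiking interneurons depend, at 119 and 125 against 116 and 139. For both genes the groups overlapped, with log2 fold changes of 0.04 ± 0.07 and 0.07 ± 0.10, and both signs turned with the correction, to -0.02 and -0.12, and without FBN-ARO-KO+GCI replicate 2, to -0.011 and -0.06.

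Of the 9 calcium channel alpha1 genes tested, 1 had an unadjusted p under 0.05, against 16.5% of all genes. Cacna1g, a low-voltage-activated T-type channel that supports burst firing, stood at 64.6 and 89.1 CPM in FLOX+GCI and at 53.5 and 52.3 in FBN-ARO-KO+GCI. The log2 fold change was -0.54 ± 0.14, or 0.689-fold, with an adjusted p of 0.238, and the FLOX+GCI libraries differed from each other more than the FBN-ARO-KO+GCI libraries did. Without FLOX+GCI replicate 1, which leaves the higher FLOX+GCI library alone in its group, the value was -0.75 on the log2 scale. Leaving out FLOX+GCI replicate 2 gave -0.29. The P/Q-type channel of the presynaptic terminal, Cacna1a, stood at 145 and 143 against 138 and 133, a log2 fold change of -0.09 ± 0.07 that became 0.03 with the correction. The L-type channel Cacna1c stood at 63.9 and 75.0 against 75.4 and 74.7, with groups that overlapped.

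The HCN genes are likewise not all reported by name, and no count or direction is given for the class. Hcn2 stood at 109 and 119 CPM in FLOX+GCI and at 105 and 109 in FBN-ARO-KO+GCI, for a log2 fold change of -0.09 ± 0.08 that became 0.21 with the correction. Hcn3 stood at 12.7 and 19.6 against 12.5 and 12.02, and Hcn4 at 1.28 and 0.974 against 0.754 and 1.26.

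In the voltage-gated Kv classes, the pore-forming subunits of the Kv1 to Kv4 families gave no gene with an unadjusted p under 0.05. Kcna1, an axonal Kv1 subunit, stood at 270 and 291 CPM against 296 and 307, Kcna2 at 39.5 and 46.7 against 44.6 and 52.7, and Kcna4 at 36.8 and 41.8 against 32.4 and 37.1. The groups overlapped for Kcna2 and Kcna4, and for Kcna1 the FBN-ARO-KO+GCI libraries were the higher ones, with a log2 fold change of 0.10 ± 0.07. Kcnc1, a Kv3 subunit of fast-spiking cells, stood at 216 and 190 against 196 and 202, and the A-type subunit Kcnd2 at 149 and 136 against 148 and 178, with groups that overlapped for both. Of the 24 genes tested in the class, 2 were lower at that threshold, where 7.82% of all genes were lower. Both were silent subunits, which form no channel alone and join other Kv subunits. Kcns1 stood at 15.8 and 13.2 in FLOX+GCI and at 9.93 and 10.3 in FBN-ARO-KO+GCI, for a log2 fold change of -0.52 ± 0.14, or 0.699-fold, with an adjusted p of 0.238, and -0.29 after the correction. Kcng1 stood at 34.6 and 36.5 against 28.7 and 28.7, a log2 fold change of -0.31 ± 0.09. The class median over 24 genes was -0.02 and turned to 0.03 with the correction.

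The Kv7 genes, whose products carry the M-current that limits repetitive firing, showed no gene of 5 with an unadjusted p under 0.05. Over all genes the share was 16.5%. Kcnq3 stood at 38.6 and 49.7 against 43.0 and 51.7, so that the spread within a group exceeded the difference between groups. The EAG family gave 3 genes of 7 that were lower at that threshold, where 7.82% of all genes were lower. With the GC and length correction it gave 0. Kcnh3, a forebrain member, stood at 122 and 131 in FLOX+GCI and at 93.3 and 96.9 in FBN-ARO-KO+GCI, for a log2 fold change of -0.41 ± 0.08, or 0.752-fold, with an adjusted p of 0.238, and -0.21 after the correction. The FLOX+GCI libraries lay above the FBN-ARO-KO+GCI libraries by more than the spread within either group. Kcnh2, which encodes the ERG channel, stood at 31.2 and 31.4 against 26.9 and 23.2, and Kcnh4 at 3.23 and 2.15 against 1.27 and 1.88. Kcnh1 had the other sign, at 78.1 and 77.4 against 81.9 and 86.7, a log2 fold change of 0.12 ± 0.08.

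At an unadjusted p under 0.05, where 16.5% of all genes stood, the calcium- and sodium-activated potassium channels gave 1 gene of 7, Kcnt2. It encodes a sodium-activated channel and stood at 19.0 and 17.2 CPM in FLOX+GCI and at 25.0 and 27.4 in FBN-ARO-KO+GCI. The log2 fold change was 0.53 ± 0.11, or 1.45-fold, with an adjusted p of 0.238, and it was 0.19 after the correction. The related Kcnt1 stood at 40.9 and 43.2 against 42.0 and 35.1, a log2 fold change of -0.12 ± 0.11. The BK channel Kcnma1 stood at 77.9 and 90.0 against 79.5 and 91.3, with nearly the same values in both groups, and the SK channel Kcnn2 at 52.6 and 59.7 against 59.9 and 63.0. The class median was 0.07 and turned to -0.03 with the correction.

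The inward rectifiers gave 1 gene of 12 that was lower at an unadjusted p under 0.05, where 7.82% of all genes were lower. Kcnj4, a strong rectifier of forebrain neurons, stood at 93.5 and 98.0 CPM in FLOX+GCI and at 72.4 and 67.7 in FBN-ARO-KO+GCI. The log2 fold change was -0.45 ± 0.08, or 0.732-fold, with an adjusted p of 0.238 and the smallest unadjusted p of the channel genes, 0.000597 by edgeR. It kept its sign in every alternative, and with the correction it was -0.24. All 18 channel genes with an unadjusted p under 0.05 kept their sign whenever 1 library was left out. The G protein-gated subunits Kcnj3 and Kcnj6 stood at 66.4 and 78.6 against 72.9 and 75.8, and at 45.6 and 52.2 against 51.9 and 52.4, with groups that overlapped. In the K2P class, 2 genes of 10 were lower at the same threshold, where 7.82% of all genes were lower, and 0 with the correction. Kcnk12, a member with little current of its own, stood at 4.35 and 4.67 against 2.96 and 2.66, a log2 fold change of -0.68 ± 0.20 (adjusted p = 0.245) that became -0.29 with the correction, and its transcript had the highest GC content of the channel genes, 70.2%. Kcnk3, an acid-sensitive leak channel, stood at 16.8 and 15.7 against 13.3 and 13.6. Kcnk1 stood at 94.2 and 97.6 against 100 and 107, and the mechanosensitive Kcnk2 at 58.2 and 44.8 against 54.6 and 51.4.

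Of the 13 auxiliary subunits of potassium channels tested, 1 was higher and 2 were lower at an unadjusted p under 0.05. Over all genes the shares were 8.72% higher and 7.82% lower. Kcnab1 stood at 167 and 181 CPM against 192 and 203, a log2 fold change of 0.19 ± 0.08. Kcnip3, which also acts as the transcriptional repressor DREAM, stood at 148 and 155 against 102 and 130, a log2 fold change of -0.38 ± 0.12 with an adjusted p of 0.245. Kcnmb4, the neuronal BK beta subunit, stood at 52.9 and 50.0 against 44.8 and 44.3. Kcnab2, the most abundant, stood at 977 in both FLOX+GCI libraries and at 1001 and 913 in FBN-ARO-KO+GCI, with a log2 fold change of -0.03 ± 0.07. Kcnq1ot1, a noncoding RNA, and Kcnrg, whose product is no channel subunit, fell under the symbol rule and gave log2 fold changes of -0.49 ± 0.33 and 0.13 ± 0.42.

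**Figure D3:**
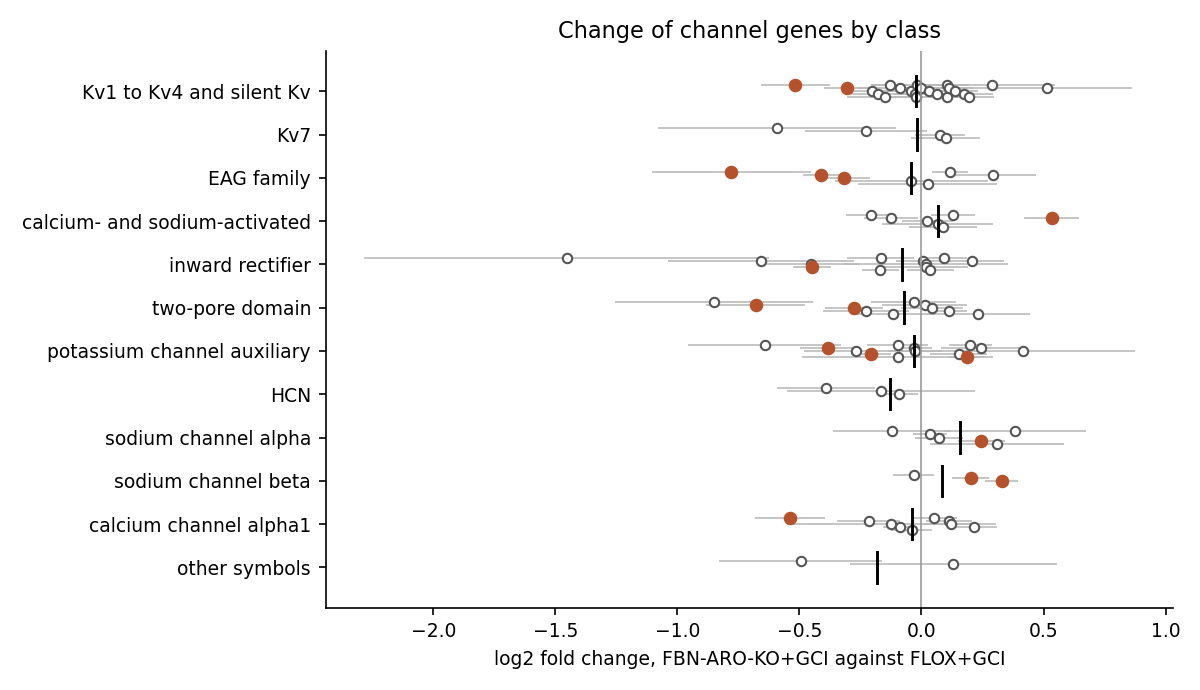
Log2 fold change of the 98 tested channel genes reported by name, FBN-ARO-KO+GCI against FLOX+GCI, by class, with the standard error as a grey line, the median of all tested genes of the class as a black bar and the 16 genes with an unadjusted p under 0.05 filled. Class medians lie between -0.18 for the other symbols, a class of 2 genes, and 0.16 for the sodium channel alpha subunits. With the GC and length correction these medians were -0.18 and 0.005.

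The log2 fold change of the channel genes varied with the GC content of their transcripts. Spearman's rho across 102 channel genes was -0.55, and it was also -0.55 across all 14020 tested genes with a GC value. Genes share their libraries, so these correlations are descriptions. The 6 higher genes had a median GC content of 46.5%, the 12 lower genes 59.7% and the others 52.8%. The pairs shown by sequence were chosen after their values were seen, so they only illustrate this order and add no support for it. Kcnt2 had a transcript GC content of 36.3% and a log2 fold change of 0.53, and Kcnt1 had 55.7% and -0.12. Kcnh7, at 9.98 and 12.7 CPM in FLOX+GCI against 12.2 and 15.5 in FBN-ARO-KO+GCI, had 39.6% and 0.29, and Kcnh3 had 60.5% and -0.41. Kcnj2, at 12.2 and 14.2 against 11.4 and 12.2 CPM, had 41.2% and -0.17, and Kcnj4 had 59.4% and -0.45. The same trend separated the FBN-ARO-KO+GCI libraries from each other, with a rho of -0.37 across the channel genes for replicate 2 against replicate 1, and -0.06 for the FLOX+GCI libraries.

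Correcting every library for its trend over transcript GC content and length brought rho to 0.06 across the channel genes and left 11 of the 103 with an unadjusted p under 0.05, or 10.7%, against 9.96% of all genes, with 6 higher and 5 lower and none with an adjusted p under 0.05. Of the 18 genes, 6 stayed under this threshold, among them the higher Scn3b and Scn2b and the lower Kcnj4, Cacna1g and Kcnmb4. With the correction the log2 fold change was 0.26 for Scn3b, 0.17 for Scn2b, -0.24 for Kcnj4, -0.42 for Cacna1g and -0.29 for Kcnmb4. Another 5 came under it only then, among them the higher Cacna1i and Kcnip2 and the lower Kcna4 and Kcnj2. Of the 18 genes, 17 kept their sign.

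**Figure D4:**
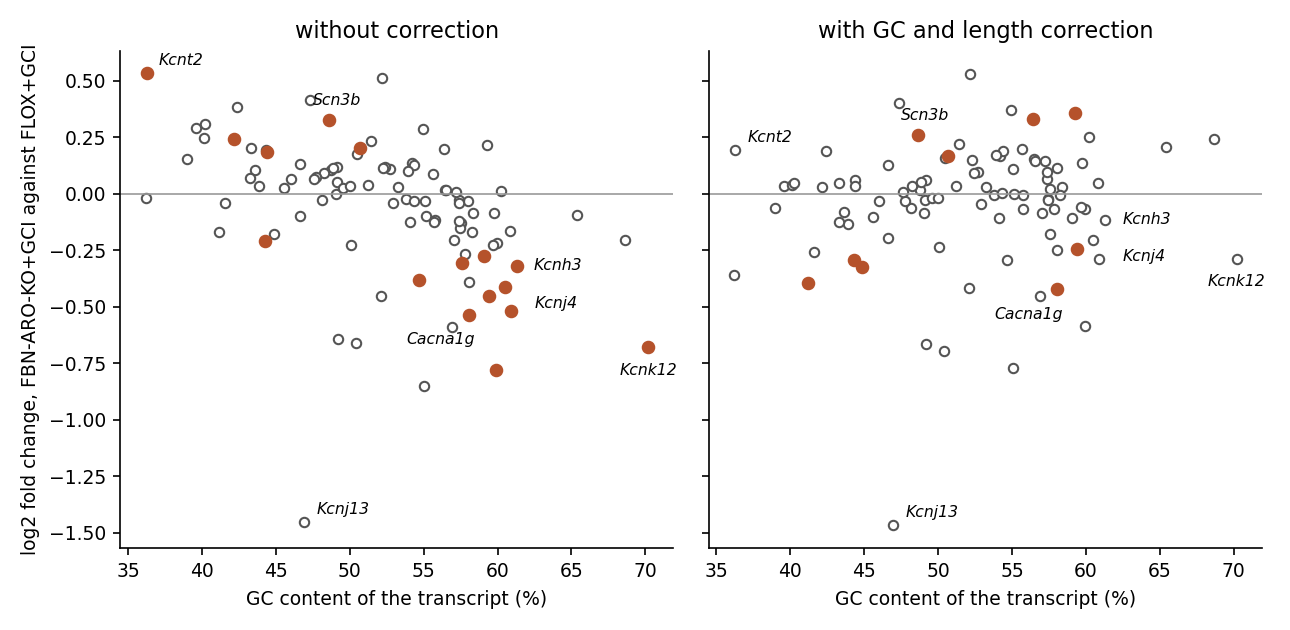
Log2 fold change, FBN-ARO-KO+GCI against FLOX+GCI, of 97 channel genes reported by name against the GC content of the transcript in percent, without (left) and with (right) the correction for GC content and length. Each point is 1 gene, filled where the unadjusted p is under 0.05, and the downward slope seen on the left is not seen on the right.

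Other tests called a few channel genes after adjustment over all genes. DESeq2 called 5, Scn3b, Cacna1g, Kcnh3, Kcnip3 and Kcnj4, where it called 1.76% of all genes. The likelihood ratio test of edgeR also called 5, Scn3b, Kcnt2, Cacna1g, Kcnh3 and Kcnj4, where it called 2.02%. With the replicate number as a block, 4 were called, all lower, where 0.977% of all genes were called lower. They were Cacna1g (adjusted p = 0.0437), Kcnh3 (0.0467), Kcnj4 (0.0394) and Kcnj13 (0.0499), and none was called once the GC and length correction was added to the block. Cacna1g, Kcnh3 and Kcnj4 were thus called in all 3 of these settings and not by the quasi-likelihood test.

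Kcnj13, an inward rectifier known from the choroid plexus and other epithelia, gave the largest negative value among the channel genes from few reads. Its counts were 83 and 22 in FLOX+GCI against 44 and 5 in FBN-ARO-KO+GCI, or 3.31, 0.892, 1.33 and 0.171 CPM, so the groups overlapped and in each group replicate 1 was the higher. The log2 fold change was -1.45 ± 0.83 with an adjusted p of 0.399, and it ranged from -3.59 to -0.22 when 1 library was left out. Kcnj13 lies inside Gigyf2 on the opposite strand, and no source used here gives the strand setting of HTSeq, so reads of both genes could not be told apart. Markers of vessels and choroid plexus varied between the same libraries. Of the 7 endothelial and mural markers, 4 had the order of Kcnj13 over the 4 libraries, Cldn5, Pecam1, Flt1 and Acta2, and in 6 replicate 1 stood above replicate 2 in both groups. Acta2, of vascular smooth muscle, stood at 59.4 and 25.1 CPM in FLOX+GCI against 44.7 and 11.5 in FBN-ARO-KO+GCI, and Cldn5, of endothelial tight junctions, at 42.3 and 24.7 against 31.0 and 19.0. Of the 8 choroid plexus markers, 1 had this order, the water channel Aqp1, which did not pass the filter on low counts, at 0.798 and 0.284 against 0.362 and 0.102 CPM. Ttr, the transthyretin of the choroid plexus, stood at 26.5 and 21.9 against 8.93 and 15.6. Of the 5 choroid plexus markers tested, 3 had a positive log2 fold change, Folr1 with 0.20, Kl with 0.09 and Clic6 with 0.24, and the median was 0.09. Kcnj8 and Kcne4, known from mural cells, stood at 4.23 and 4.34 against 3.05 and 3.21 CPM, and at 2.16 and 1.58 against 1.33 and 1.06, with log2 fold changes of -0.45 ± 0.20 and -0.64 ± 0.31. Kcnj8 and Kcne4 were named after their values were seen. Mural genes of the marker list did not share 1 direction. Pdgfrb stood at 37.7 and 28.7 against 27.9 and 20.3 CPM, a log2 fold change of -0.46 ± 0.18. Rgs5 stood at 29.3 and 23.8 against 25.6 and 24.9, with -0.07 ± 0.12. Abcc9 stood at 7.06 and 9.17 against 9.14 and 9.97, with 0.24 ± 0.17. The groups overlapped for Rgs5 and Abcc9. The part of vessel or choroid plexus content in these values was not tested, and in a tissue library fewer cells of a type and less RNA per cell cannot be told apart.

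**Figure D5:**
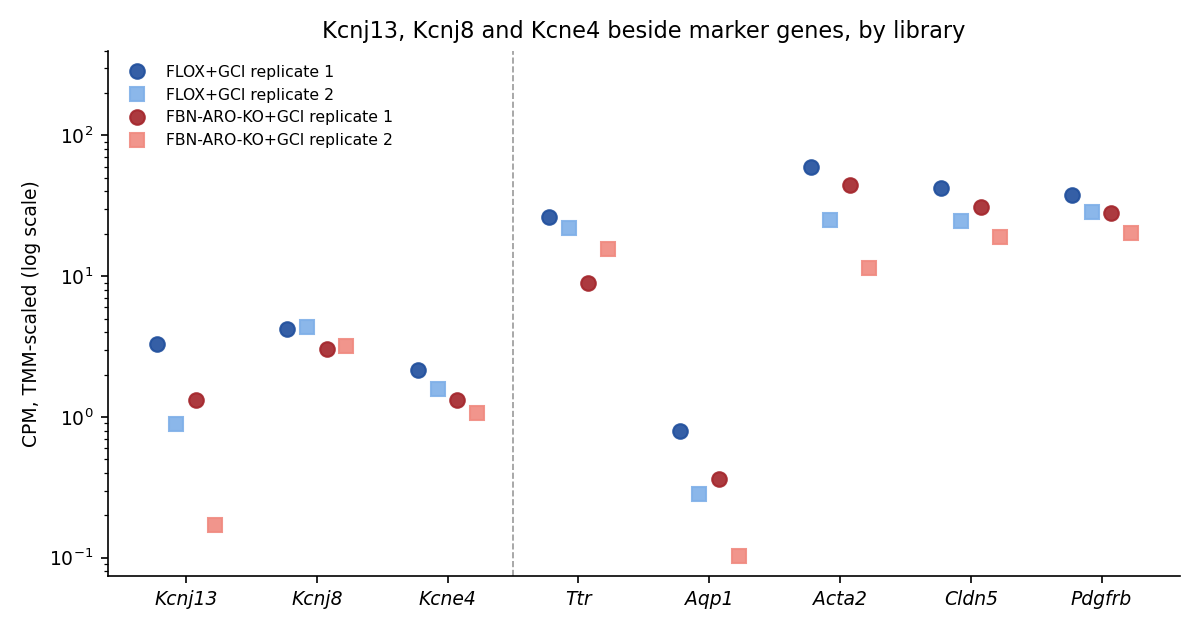
TMM-scaled CPM (log scale) in each library for the channel genes Kcnj13, Kcnj8 and Kcne4 (left of the dashed line) and for markers of choroid plexus (Ttr, Aqp1), smooth muscle (Acta2), endothelium (Cldn5) and mural cells (Pdgfrb). The groups overlapped for Kcnj13, Aqp1, Acta2 and Cldn5. The plotted markers are only part of their lists. Pecam1, Flt1, Rgs5 and Abcc9 of the endothelial and mural list are not plotted. Folr1, Kl and Clic6 of the choroid plexus list, which had positive log2 fold changes, are not plotted either. Each symbol is 1 library, and in Kcnj13, Kcne4, Aqp1, Acta2, Cldn5 and Pdgfrb replicate 1 of each group stands above replicate 2.

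The hippocampal label was checked against cell type markers, since channel genes differ between cell types. The 6 markers of pyramidal neurons were abundant, with a summed level of 7217 and 7521 CPM in FLOX+GCI against 7415 and 7376 in FBN-ARO-KO+GCI, and none had an unadjusted p under 0.05. Of the 4 dentate granule cell markers, Calb1 and Dsp were higher and C1ql2 lower at that threshold, with log2 fold changes of 0.53 ± 0.07, 0.42 ± 0.11 and -0.45 ± 0.17, and the summed level was 320 and 292 against 376 and 368. Of the 6 interneuron markers, Sst and Slc32a1 were lower, with -0.38 ± 0.10 and -0.33 ± 0.09, and the summed level was 998 and 939 against 908 and 915. The 7 astrocyte markers gave Slc1a2 higher and Aldh1l1 lower, the 7 endothelial and mural markers gave Pdgfrb lower with a summed level of 273 and 183 against 219 and 148, and the 5 oligodendrocyte and 4 microglia markers gave none. Of 8 choroid plexus markers 5 were tested and Ttr was lower, and of the 4 markers of neighbouring tissue Drd1a was lower. With the GC and length correction, 4 of these 10 markers stayed under the unadjusted threshold, Ttr, Dsp, Aldh1l1 and Drd1a. The log2 fold change then was 0.22 for Calb1, -0.15 for C1ql2, -0.15 for Sst and -0.09 for Slc32a1. Of the 48 markers tested, the quasi-likelihood test called 0 at an adjusted p under 0.05, where 10 had an unadjusted p under 0.05. The share of all genes under this unadjusted threshold was 16.5%. DESeq2 gave an adjusted p to 35 of the 48 and called 3, Calb1, Dsp and Sst, where it called 1.76% of all genes. The likelihood ratio test, which called 2.02% of all genes, called the same markers and Ttr, for which DESeq2 gave no adjusted p. With the replicate block 3 were called, Calb1 higher and Ttr and Acta2 lower, where 0.977% of all genes were called lower. None of the markers was called once the GC and length correction was added to the block. The part of these cell types in the channel values was not tested.

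Partner proteins that the symbol rule leaves out were listed separately, with 37 genes of which 35 were tested. At an unadjusted p under 0.05, 3 were higher and 1 was lower, or 11.4% against 16.5% of all genes, and the median log2 fold change was 0.04. With the GC and length correction 0 were higher and 3 were lower, and without FBN-ARO-KO+GCI replicate 2 there were 0 in either direction. The higher genes were Cacna2d1, the α2δ subunit of calcium channels, at 219 and 194 against 233 and 322 CPM, Adam22, a receptor of the Kv1 complex, at 217 and 212 against 230 and 265, and the chloride importer Slc12a2 at 58.4 and 54.8 against 60.8 and 86.6. In all 3, FBN-ARO-KO+GCI replicate 2 was the highest library. Their log2 fold changes of 0.43, 0.21 and 0.38 became 0.17, 0.05 and 0.20 with the correction, and 0.18, 0.10 and 0.10 without that library. Lrrc55, a BK auxiliary subunit, stood at 13.2 and 18.9 against 11.0 and 12.02. The sodium channel alpha subunit listed as Scn2a1 in these files, which the rule does not match, stood at 326 and 310 against 324 and 392, a log2 fold change of 0.17 ± 0.10.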

How the data were processed

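Hippocampal RNA of 4 libraries was sequenced as single-end reads of 50 nt. Per the labels, the submitters' processing notes list bcl2fastq, TopHat2 2.0.8b, HTSeq and the build mm9, and the authors deposited raw counts per gene symbol with no normalization. The annotation release and the strand setting of the counting are not given in the sources used here. Of the reads in each file, 43.4% to 45.5% were on no gene, ambiguous or not unique, and these counters were left out.

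Groups and replicate numbers came from the labels. FBN-ARO-KO+GCI was compared with FLOX+GCI with edgeR 4.0.16 (R 4.3.3) and its quasi-likelihood test, using TMM scaling, filterByExpr (minimum count 10) and Benjamini-Hochberg adjustment over all 14527 genes at 0.05. Fold changes are log2 of FBN-ARO-KO+GCI over FLOX+GCI, and each SE is the absolute log2 fold change over the square root of F. Replicates differed by more than sampling noise, with a chi-square of 10.8 and 12.8 per degree of freedom. Transcript length, GC content and positions came from the longest coding transcript of GENCODE M1 on NCBIM37 (mm9), with a single locus for 116 of the 120 members.

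The members, the classes, and the partner and cell type marker lists were chosen with earlier results of these data known. Named genes are a roster of brain channels, up to 5 in each direction with the smallest unadjusted p among members whose groups did not overlap, and members called with the replicate block. The other members with an unadjusted p under 0.05, and others named for their class, were chosen after their values were seen, and the figures leave out 5 members not reported here. Alternatives were DESeq2 1.42.0, DESeq-style size factors, library totals only, a looser filter (at least 1 count) and a stricter one (mean count 50), edgeR's likelihood ratio test, a block on the replicate number, natural splines with 5 degrees of freedom over GC content and log length as an offset, the block with this offset, and each library left out. The quasi-likelihood and likelihood ratio tests, DESeq2, the replicate block and both fits with the offset were run on simulated data. The other alternatives were not.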

Additional observations from a re-analysis of the deposited data

How the results depend on the processing

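The quasi-likelihood test called 2 of 14527 genes. DESeq2 called 256, the likelihood ratio test 294, a filter that kept every gene with at least 1 count 5, and leaving out 1 library between 0 and 193 (193 without FLOX+GCI replicate 1, 127 without FLOX+GCI replicate 2, 0 without FBN-ARO-KO+GCI replicate 1, where 1556 genes were higher and 1216 lower at an unadjusted p under 0.05, and 0 without FBN-ARO-KO+GCI replicate 2, where 364 were higher and 467 lower). Among the channel genes, the 18 with an unadjusted p under 0.05 became 11 with the GC and length correction, and between 10 and 19 when 1 library was left out, the lowest being without FBN-ARO-KO+GCI replicate 2. The causes were not tested. The other alternatives gave between 13 and 20, and the median log2 fold change of the channel genes moved by less than the spread between replicates in every alternative. Of 480 values recomputed for 37 named channel genes, 436 kept their sign and side of the adjusted threshold, 15 passed it and 29 changed sign. With 2 libraries in each group, leaving 1 out leaves a lone library that is assumed to vary like the others.

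The replicate numbers are shared between groups by the labels, but nothing says that same-numbered libraries were handled together, and with 2 pairs their deviations from the group means correlated at 0.129 across genes. The block on replicate number called 184 genes (42 higher, 142 lower) and 4 channel genes, and the block with the GC and length correction called 1 gene and no channel gene. With the block, the log2 fold change was -0.52 for Cacna1g, -0.41 for Kcnh3, -0.45 for Kcnj4 and -1.59 for Kcnj13.

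None of the named genes that changed sign had an adjusted p under 0.05. With the GC and length correction, and with the block added to it, the log2 fold change became 0.031 and 0.031 for Cacna1a, 0.21 and 0.21 for Hcn2, 0.11 and 0.11 for Kcnab2, 0.067 and 0.070 for Kcnc1, -0.13 and -0.13 for Kcnj3, -0.10 and -0.10 for Kcnma1, -0.12 and -0.12 for Scn1a, and -0.020 and -0.020 for Scn8a. With library totals only it was -0.013 for Kcnma1 and -0.00046 for Scn8a. When 1 library was left out, it ranged from -0.10 to 0.036 for Kcnab2, -0.12 to 0.070 for Kcnc1, -0.079 to 0.16 for Kcnj3, -0.14 to 0.24 for Kcnk2, -0.077 to 0.13 for Kcnma1, -0.070 to 0.29 for Kcnq3, -0.064 to 0.19 for Scn1a and -0.011 to 0.080 for Scn8a.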
